A study of Mus musculus with 196 samples.

Results

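The nuclear-encoded subunits of the oxidative phosphorylation machinery are 82 of the 25706 mouse genes in the deposited expression table. They were chosen by gene symbol alone: names that begin with Nduf and a subunit letter and number (complex I, 37 genes), Sdha to Sdhd (complex II, 4 genes), Uqcr (complex III, 8 genes), Cox4 to Cox8 with an isoform letter (complex IV, 16 genes) and Atp5 (complex V, 17 genes). The pseudogene Ndufb1-ps was left out. The choice by name takes in a few genes that are not structural subunits of the complex their name points to. Ndufa4 is now known as a subunit of complex IV, Cox7a2l is known for joining complexes III and IV into supercomplexes, and Atp5sl (also called Dmac2) is known as an assembly factor of complex I. The 13 subunits encoded by mitochondrial DNA have no row in the table, so the measurements cover the nuclear side of the machinery only.

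Complex I oxidises NADH, complex II oxidises succinate, complexes III and IV pass the electrons on to oxygen, and complex V uses the resulting proton gradient to make ATP. Most structural subunits come from nuclear genes and are imported into mitochondria, where they join the mitochondrially encoded ones. Germ cells change their energy metabolism as they leave the pluripotent-like state of early primordial germ cells (PGCs), and several small subunits of complex IV have paralogs known from testis or muscle (Cox6b2, Cox7b2 and Cox8c from testis, Cox6a2, Cox7a1 and Cox8b from heart and muscle).

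The series asked whether ZGLP1, a GATA-like zinc finger protein, determines the oogenic fate of mouse germ cells. RNA was measured by 3′-end sequencing in PGC-like cells (PGCLCs), which derive from embryonic stem cells through an epiblast-like stage, were sorted for a Prdm1-mVenus reporter on the fourth day of induction and were then expanded on m220 feeders, which express membrane-bound SCF, with cultured cells sorted for Dppa3-ECFP. Days below count days of this expansion culture, day 0 being the sorted PGCLCs. The 191 PGCLC libraries form 98 groups of a line, a treatment and a day, and 3 further libraries came from embryonic germ cells.

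All lines descend from 129S1:C57BL/6 stem cells and carry Prdm1-mVenus and Dppa3-ECFP, each as Tg/0. OE_A2 (64 libraries) is 1 clone with piggyBac transgenes: a tetO/mCMV-driven Zglp1 coding sequence with IRES-mCherry and EF1a-Pac, and EF1a-rtTA-IRES-Neo, so that doxycycline switches on Zglp1. OESko_A11 (16 libraries) is 1 clone with the same transgenes on Stra8-/-, STRA8 being a retinoic acid-responsive regulator of meiotic entry. Zko_E5 and Zko_G10 (26 libraries each) are 2 Zglp1-/- clones, Sko_B6 and Sko_F6 (16 each) are 2 Stra8-/- clones, and H18 (27 libraries) is the parent line with neither knockout nor Zglp1 transgene. The treatments were Dox (doxycycline), DoxRA (doxycycline and retinoic acid), BMP2, B2RA (BMP2 and retinoic acid), BMS and BMSDox, SerumMinus, SerumMinusWIN and SerumMinusWINDox, each named as labelled, and control medium, at days 4, 5, 7 and 9. H18 also had RA (retinoic acid alone) at days 3.5 and 4, and control, BMP2 and B2RA libraries at day 3.5. OE_A2 was also sampled at days 0 and 3 and the Zglp1-/- clones at day 0, with no treatment named. In the embryo, 1 library each came from PGCs at E9.5 sorted for Dppa3-EGFP and from oocytes at E14.5 and E15.5 sorted for Ddx4-RFP, all from matings of ICR females. Doses of doxycycline, retinoic acid and BMP2, and the deleted parts of Zglp1 and Stra8, are not given in the sources used here.

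Libraries held 877040 to 5196593 reads and detected 11850 to 16957 genes, and the subunit genes took 1.77 to 3.52% of reads. Every group had 1 or 2 libraries, and nothing in the labels says that the 2 came from separate cultures. Each p-value rests on the spread between libraries within groups, shared over all PGCLC groups. It does not measure the spread of the libraries compared alone, nor that between separate cultures. All 8 germ cell markers, among them Dppa3, Ddx4 and Dazl, were detected in every day 9 group, as the germ cell label requires. Both knockouts retained 3′ reads of their target. Zglp1 read 16.3 to 32.7 RPM (reads per 1000000 reads) in B2RA cells of the Zglp1-/- clones, against 48.9 to 53.6 RPM in B2RA cells of H18, and Stra8 read 423 to 688 RPM in Sko_B6 and 52.7 to 67.0 RPM in Sko_F6, against 658 to 805 RPM in H18. These 3′ reads may lie outside the deleted parts, so they do not check the labels. The transgene's IRES-mCherry row stood at 1720 to 4609 RPM in OE_A2 DoxRA cells and 925 to 1659 RPM in Dox cells at day 9, against 162 to 406 RPM in control cells, and at 0 in H18. In bulk RNA, fewer cells of a type and less RNA per cell cannot be told apart.

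Fold changes below are differences on the log2(RPM + 1) scale, which understates the change of low genes. Genes entered a test if 10 RPM or more was found in 2 or more of its libraries, and a gene was called where limma's Benjamini-Hochberg adjusted p over all tested genes was under 0.05. All adjusted p-values below come from this limma fit. A count of called subunits is read against the percentage of all tested genes called in the same comparison. Over all PGCLC libraries, the median level was 1711 RPM for Atp5b, the catalytic beta subunit of the ATP synthase, 1404 RPM for Atp5g3, which encodes the c-ring subunit, and 1131 RPM for Cox5a. Most tissue-restricted isoforms were low: Cox7a1 had a median of 15.0 RPM, Cox7b2 3.10 RPM, Cox8c 0.861 RPM, and Cox6a2 and Cox8b 0 RPM. Cox6b2 was not low, with a median of 191 RPM.

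The results turn most on a pair of subunits that rose, Ndufa1 and Atp5f1, and a pair that fell, Cox7b and Cox8a. Ndufa1 encodes a small accessory subunit of the membrane arm of complex I (gene at chrX:37187588-37191238). Atp5f1 encodes subunit b of the peripheral stalk of the ATP synthase (chr3:105942698-105959263). Cox7b and Cox8a encode small structural subunits of complex IV (chrX:106015700-106022450 and chr19:7215158-7217616). Their promoters, 300 bases each from 250 before to 50 after the RefSeq start in GRCm38.p6, are shown because these genes moved in opposite directions. The windows are Ndufa1 at chrX:37191189-37191488 on the minus strand, Atp5f1 at chr3:105959214-105959513 on the minus strand, Cox7b at chrX:106015450-106015749 on the plus strand and Cox8a at chr19:7217567-7217866 on the minus strand, and capitals mark motif matches.
Ndufa1: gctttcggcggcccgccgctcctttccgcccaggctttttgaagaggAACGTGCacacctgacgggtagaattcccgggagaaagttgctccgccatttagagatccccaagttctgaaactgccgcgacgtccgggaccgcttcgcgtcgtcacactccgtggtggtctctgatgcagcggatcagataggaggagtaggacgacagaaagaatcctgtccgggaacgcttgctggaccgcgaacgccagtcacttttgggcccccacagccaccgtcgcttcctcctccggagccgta
Atp5f1: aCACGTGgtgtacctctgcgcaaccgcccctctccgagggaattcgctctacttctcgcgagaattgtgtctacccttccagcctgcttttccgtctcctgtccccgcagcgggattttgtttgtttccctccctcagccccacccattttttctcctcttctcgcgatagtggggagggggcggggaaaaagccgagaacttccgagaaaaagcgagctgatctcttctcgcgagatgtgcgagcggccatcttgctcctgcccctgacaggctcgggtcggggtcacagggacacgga
Cox7b: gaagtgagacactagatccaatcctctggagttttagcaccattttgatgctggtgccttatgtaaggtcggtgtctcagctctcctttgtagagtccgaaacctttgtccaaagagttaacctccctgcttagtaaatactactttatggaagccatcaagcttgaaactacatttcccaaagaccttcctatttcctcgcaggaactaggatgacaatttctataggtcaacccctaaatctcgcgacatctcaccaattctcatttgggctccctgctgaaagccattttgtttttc
Cox8a: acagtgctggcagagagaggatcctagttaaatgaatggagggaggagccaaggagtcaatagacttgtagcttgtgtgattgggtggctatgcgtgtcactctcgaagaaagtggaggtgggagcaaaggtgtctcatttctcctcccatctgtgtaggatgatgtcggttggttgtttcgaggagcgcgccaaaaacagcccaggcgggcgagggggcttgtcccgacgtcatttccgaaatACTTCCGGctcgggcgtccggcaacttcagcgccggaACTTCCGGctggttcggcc
The Ndufa1 window held 1 hypoxia response element (NACGTGC), the Atp5f1 window 1 E-box (CACGTG), the Cox8a window 2 ETS matches (CCGGAAGT, in capitals as its reverse complement), and the Cox7b window none of the 6 motifs searched on both strands. Over the 75 promoters of the 69 subunit genes with an entry, 24.0% held the NRF1 motif, against 4.6% of all 32851 promoters in the table, and 16.0% held the YY1 motif AANATGGCG, against 2.38%. The other motifs gave 6.67% against 3.89% for ETS, 12.0% against 7.15% for the E-box, 5.33% against 5.91% for the hypoxia element and 8.0% against 11.2% for the GATA motif AGATAA. These matches describe the letters in the windows. The promoters and motifs were chosen after the expression values were seen.

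With doxycycline alone, which switches on Zglp1, a minority of the subunits passed the test at day 9, a few of them with strong changes. Doxycycline was given only to clones that carry the Zglp1 transgene, so the drug and ZGLP1 cannot be told apart. In OE_A2, 20 of the 78 subunits tested were called, 15 higher and 5 lower in Dox cells than in control cells, beside 34.8% of all genes tested. The median change was 0.13 over the subunits and 0.06 over all genes. Complex I, with 37 of the 82 subunit genes, accounted for 8 of the 15 that rose, with a median of 0.28 over the complex. Gonadal soma markers (9 genes) summed to 5.16 to 5.46 RPM in Dox cells, against 20.1 to 23.1 RPM in control cells, with Nr5a1, Amh and Lhx9 at 0 in both, and their part in the result was not tested.

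Ndufa1 read 257 and 436 RPM in the 2 Dox libraries, against 117 and 84.4 RPM in control libraries. Both Dox libraries lay above both controls, and the change was 1.74 (SE 0.45, limma Benjamini-Hochberg adjusted p = 0.00136). Ndufs1, the largest iron-sulfur subunit of the NADH-oxidising arm, read 330 and 371 RPM in Dox libraries, against 140 and 161 RPM in controls, a rise of 1.21 (SE 0.22, limma adjusted p = 5.18e-06). Its gene overlaps Eef1b2 on the opposite strand, and whether reads were counted by strand is not given in the sources used here, so the reads of the pair cannot be told apart. Ndufv2, another iron-sulfur subunit of that arm, rose by 0.79. Atp5f1 rose by 0.97, with 2064 and 1988 RPM in Dox libraries, against 1091 and 981 RPM in controls. It overlaps Wdr77 on the opposite strand, with the same limit.

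Other structural subunits moved the other way. Cox8a read 272 and 331 RPM in Dox libraries, against 767 and 676 RPM in controls, and fell by 1.26 on the log2 scale (SE 0.29, limma adjusted p = 0.000393). Cox7b read 242 and 265 RPM in Dox libraries, against 652 and 556 RPM in controls, a change of -1.25. Ndufv3, a small accessory subunit of complex I, read 54.2 and 83.4 RPM in Dox libraries, against 181 and 174 RPM in controls, a change of -1.39. In each of these genes the groups did not overlap. In complex V, Atp5c1, the rotor subunit gamma, fell by 0.88 while Atp5f1 rose. In complex II, Sdhb and Sdhc each rose by 0.57. Sdhb carries the iron-sulfur clusters and Sdhc is a membrane anchor. Some of these calls were lost when 1 library was left out: Ndufa1 (1.36) and Sdhb (0.53) without Dox replicate 2, Ndufv3 (-1.08) and Sdhc (0.43) without Dox replicate 1, and Sdhc (0.54) also without control replicate 1.

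**Figure D1:**
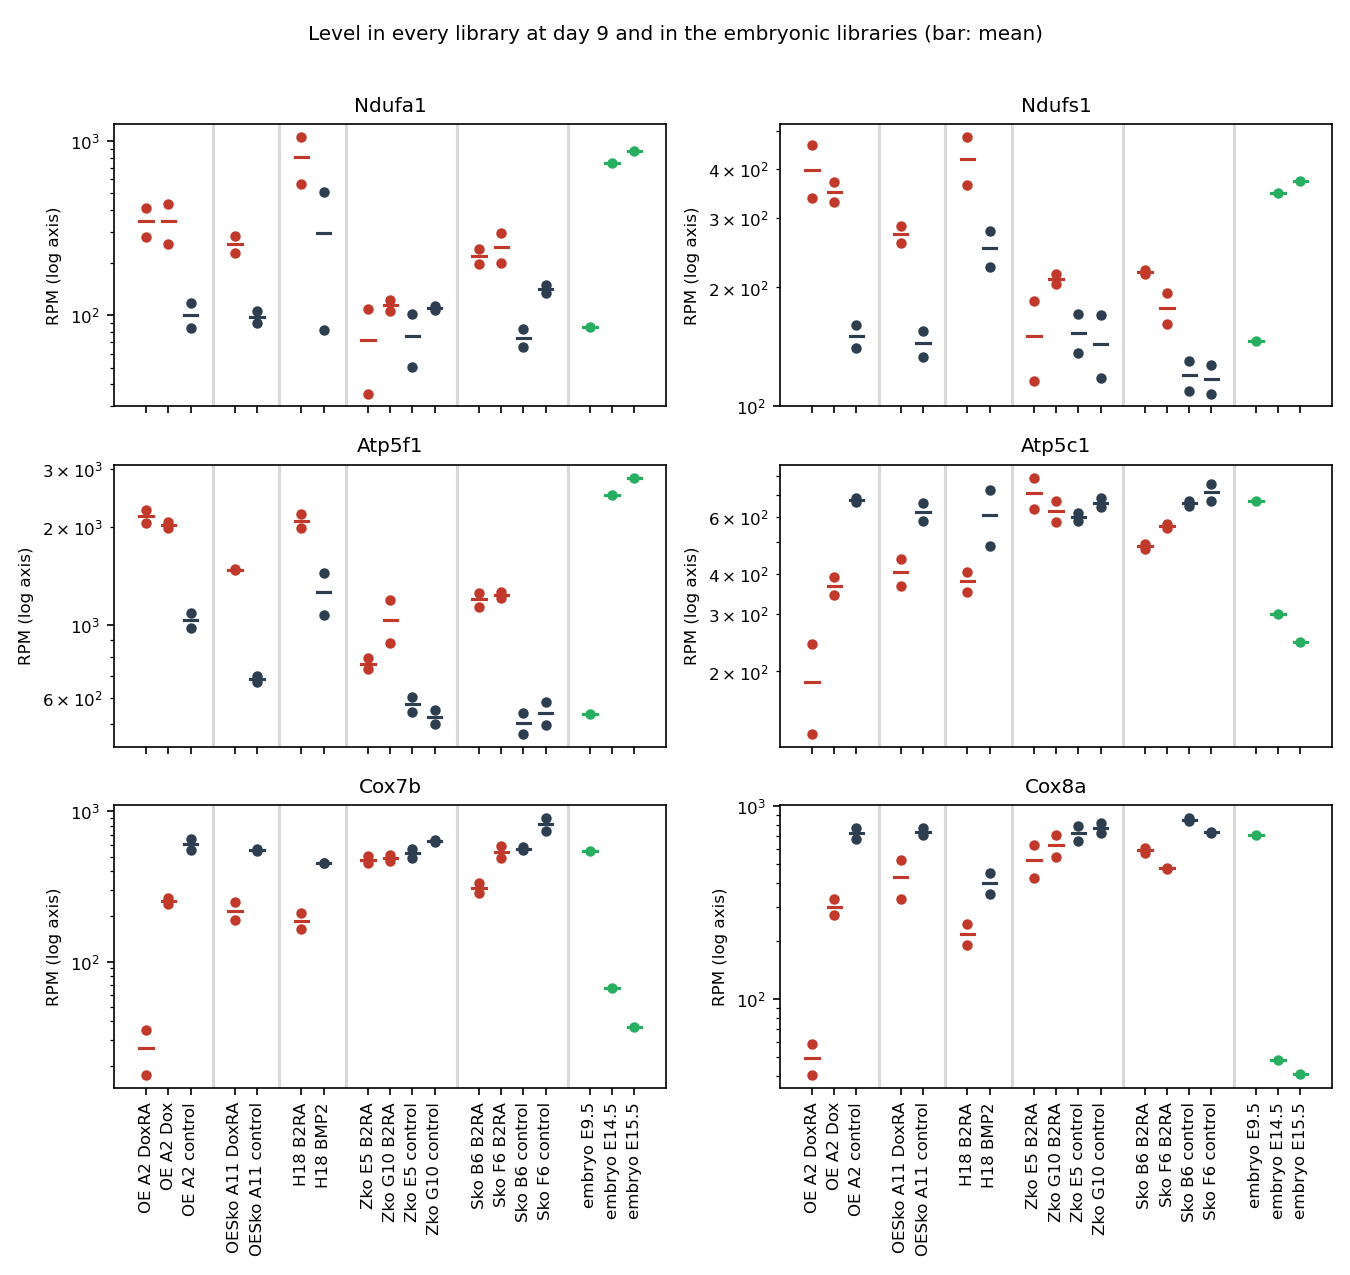
RPM of Ndufa1, Ndufs1, Atp5f1, Atp5c1, Cox7b and Cox8a (log axes) in each library at day 9 and in the 3 embryonic libraries, points being libraries and bars group means; red marks groups given doxycycline or B2RA, dark control or BMP2 groups, green the embryo. Cox7b reads 17.6 and 35.1 RPM in OE_A2 DoxRA cells, against 652 and 556 RPM in control cells, while Ndufa1, Ndufs1 and Atp5f1 are higher in the doxycycline groups than in their own controls.

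Doxycycline with retinoic acid gave a different picture at day 9. In OE_A2, 52 of 78 subunits were called between DoxRA and control cells, 11 higher and 41 lower, beside 62.3% of all genes called and 28.9% called lower. The median change was -0.61 over the subunits and 0.11 over all genes (-0.71 and 0.01 with TMM scaling). Falls were spread over complex I (17 of the 41), complex III (4), complex IV (9) and complex V (11), with medians of -0.56, -0.76, -0.88 and -0.69. Complex II had none lower: Sdhb rose by 0.76 and Sdhc by 0.68, and the median over its 4 genes was 0.70.

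Cox7b read 17.6 and 35.1 RPM in DoxRA libraries, against 652 and 556 RPM in controls. It had the largest fall among the subunits, 4.54 on the log2 scale (SE 0.31; a change of -4.54, limma adjusted p = 2.52e-24). Cox8a read 40.7 and 59.0 RPM in DoxRA libraries, against 767 and 676 RPM in controls, a change of -3.85 (SE 0.29, limma adjusted p = 1.56e-21). Ndufv3 followed with 22.5 and 23.9 RPM in DoxRA libraries, against 181 and 174 RPM in controls, a change of -2.88. Both DoxRA libraries lay far below both controls in all of these.

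The subunits that lay nearest to the median of their complex moved less. Atp5a1, the catalytic alpha subunit of the ATP synthase, read 627 and 643 RPM in DoxRA libraries, against 1105 and 957 RPM in controls, a change of -0.69. Cox5b, a matrix-facing subunit of complex IV, read 356 and 344 RPM in DoxRA libraries, and its change was -0.88. Ndufb10 changed by -0.55 and Uqcr10 by -0.86, both called. Without control replicate 1 both calls were lost (-0.41 and -0.68), as was that of Ndufb10 without DoxRA replicate 2 (-0.42) and that of Uqcr10 without DoxRA replicate 1 (-0.70). The rises that Dox alone gave were also seen in DoxRA cells: Ndufa1 (280 and 410 RPM in DoxRA libraries) rose by 1.76 and Ndufs1 (337 and 460 RPM) by 1.39. Both comparisons share the same control libraries.

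**Figure D2:**
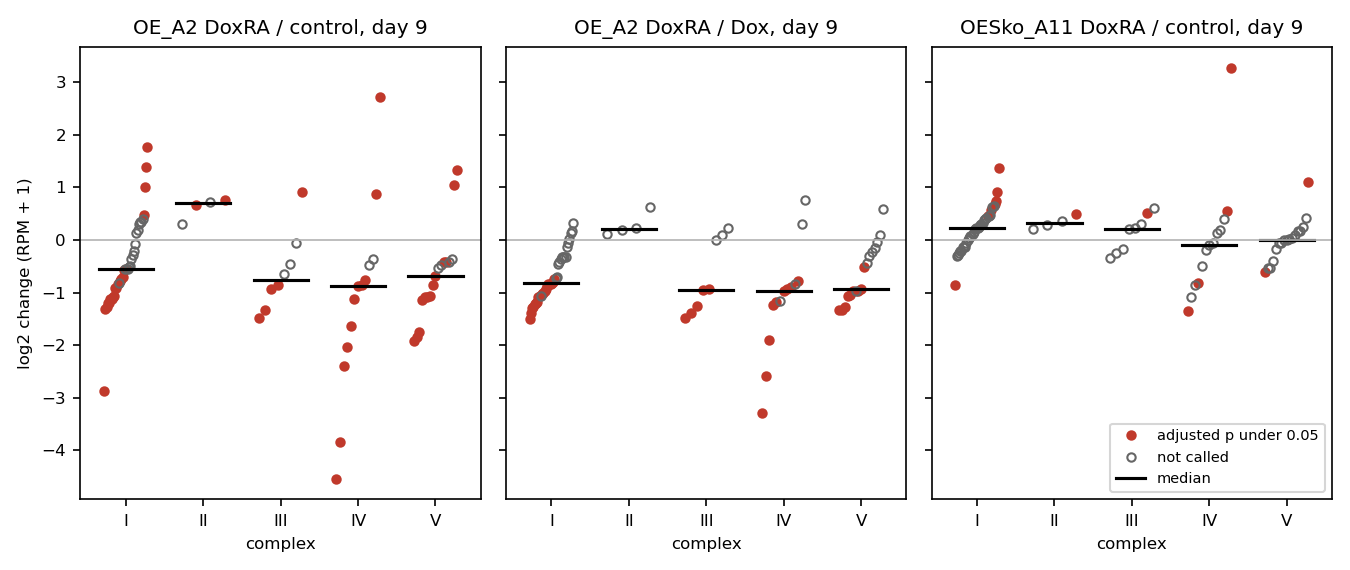
Log2(RPM + 1) changes of every tested subunit by complex at day 9, for DoxRA against control and DoxRA against Dox in OE_A2 and DoxRA against control in OESko_A11; filled points were called, open points were not, and lines are medians. In OE_A2 the medians of complexes I, III, IV and V lie between -0.56 and -0.98 in both comparisons while that of complex II is above 0, and in OESko_A11 all 5 medians lie between -0.10 and 0.32.

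DoxRA was also set against Dox, groups that differ in retinoic acid. The transgene's IRES-mCherry row was also higher in DoxRA than in Dox cells at day 9, so retinoic acid and transgene level cannot be told apart. At day 9, 43 of 78 subunits were called, all 43 lower in DoxRA cells, beside 25.3% of all genes called and 15.2% called lower. The median change was -0.85 over the subunits and 0.08 over all genes. Cox7b changed by -3.29, Cox8a by -2.59 and Cox6b2, the testis paralog of Cox6b1, by -1.89, with 30.0 and 35.9 RPM in DoxRA libraries, against 121 and 129 RPM in Dox libraries. The typical subunit changed less: Ndufs8, an iron-sulfur subunit of complex I, read 54.0 and 45.4 RPM in DoxRA libraries, against 82.5 and 97.7 RPM in Dox libraries, a change of -0.85 (SE 0.24, limma adjusted p = 0.00478), which was not called without Dox replicate 2 or without DoxRA replicate 2 (-0.72 in each case). None of the 4 complex II genes was called: Sdhb had 270 and 380 RPM in DoxRA libraries, against 273 and 288 RPM in Dox libraries, with overlapping groups and a change of 0.19 (SE 0.18). The count was 14 without Dox replicate 2 and 21 without DoxRA replicate 2.

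Within complex I, the 7 nuclear-encoded core subunits, which carry the redox centres and include Ndufs1, Ndufv1 and Ndufv2, differed in their counts from the 30 others. Those 30 are called accessory here, and they include Ndufa4, now known as a subunit of complex IV, and its paralog Ndufa4l2. In DoxRA against control cells the core had 2 higher and 1 lower with a median of 0.33, and the 29 accessory subunits tested had 2 higher and 16 lower with a median of -0.69. In DoxRA against Dox cells the medians were -0.32 for the core and -0.88 for the accessory subunits. In Dox against control cells they were 0.51 and 0.19. The split into core and accessory subunits was made after the values were seen, and the difference between the parts was not tested.

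Transcript length moved with these changes in all genes, not only in the subunits, most of which are short. In DoxRA against Dox cells, the 20 tested subunits with transcripts under 600 nt had a median change of -1.02, beside -0.93 for the other genes of that length. The 25 subunits of 600 to 1000 nt had a median of -0.85, beside -0.61 for other genes, and the 25 of 1000 to 2000 nt had -0.31, beside -0.11. The 8 subunits above 2000 nt had a median of 0.14, beside 0.18 for other genes. Ribosomal protein genes, also short, took 10.03 to 18.2% of reads in DoxRA libraries, against 21.7 to 21.9% in Dox and 23.3 to 23.5% in control libraries. Transcripts of the core subunits of complex I had 983 to 2661 nt and those of complex II 1142 to 3171 nt. Lengths are those of the longest transcript that the annotation marks as principal, or of the longest coding one where none is marked. This put Ndufb2 (4371 nt) and Atp5g1 (4715 nt) in the longest class, and the transcripts used in these cells were not measured. An order by length in the same direction was seen in OESko_A11 DoxRA against control cells at day 5, given below. The part of transcript length in the result was not tested, and these values were added after the changes had been seen. Cox7b (1001 nt) and Cox8a (550 nt) fell further than the medians of their length classes, and Ndufa1 (419 nt) did not fall. These genes were picked for their changes, so their distance from the medians does not bear on the part of length.

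**Figure D3:**
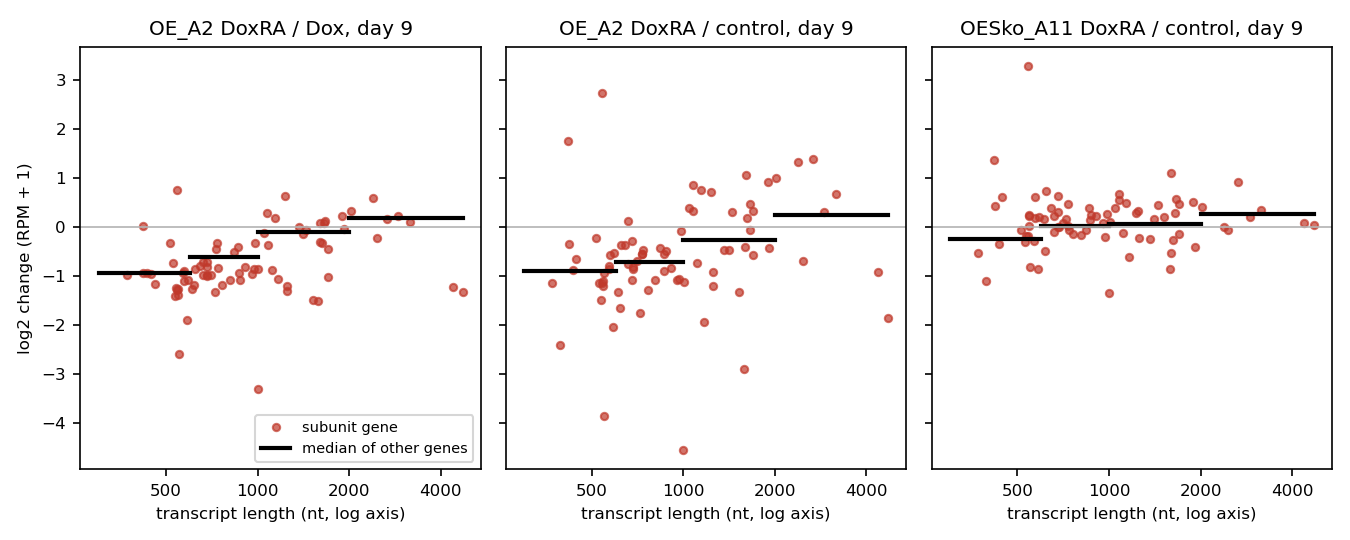
Log2(RPM + 1) change of every tested subunit (points) against transcript length in nt (log axis) for DoxRA against Dox and DoxRA against control in OE_A2 and DoxRA against control in OESko_A11, all at day 9; black lines are medians of all other genes in 4 length classes. In OE_A2 against Dox the other genes run from -0.93 under 600 nt to 0.18 above 2000 nt and the subunits follow from -1.02 to 0.14, while in OESko_A11 the other genes run from -0.25 to 0.27 and the subunits' medians lie between -0.01 and 0.21.

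The same DoxRA treatment in the Stra8-/- clone OESko_A11 was followed by no such broad fall at day 9. At day 9, 15 of 78 subunits were called between DoxRA and control cells, 11 higher and 4 lower, beside 30.9% of all genes, with a median of 0.15 over the subunits and 0.21 over all genes. With TMM scaling, which moved the median of all genes to -0.04, the split was 3 higher and 7 lower. Cox7b fell here too, with 189 and 249 RPM in DoxRA libraries, against 542 and 565 RPM in controls, a change of -1.35 (SE 0.31, limma adjusted p = 0.000385). Cox8a read 330 and 524 RPM in DoxRA libraries, against 704 and 767 RPM in controls, a change of -0.82. Atp5f1 rose by 1.11, with 1478 and 1481 RPM in DoxRA libraries, against 668 and 699 RPM in controls, and Ndufa1 by 1.38, with 226 and 285 RPM, against 89.6 and 105 RPM in controls. The groups did not overlap in any of these. The call of Ndufa1 was lost with TMM scaling (1.14), with edgeR (1.17), without control replicate 1 (1.26) and without DoxRA replicate 2 (1.21), and that of Cox8a without DoxRA replicate 1 (-0.49) and without either control library (-0.88 and -0.76).

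The difference between the 2 lines' responses was tested directly. The DoxRA response of OESko_A11 minus that of OE_A2 was called in 23 of 79 subunits, 22 higher and 1 lower, beside 22.3% of all genes called and 16.1% called higher. The median difference was 0.78 over the subunits and 0.17 over all genes, and with TMM scaling, where the median of all genes was 0.03, 13 were called, 11 of them higher. Other genes of the same transcript length differed too: the median was 0.82 under 600 nt, 0.72 at 600 to 1000 nt, 0.36 at 1000 to 2000 nt and 0.06 above, beside 1.05, 0.90, 0.22 and -0.21 for the subunits of these classes. Complex IV had a median difference of 1.04 (6 called higher), complex III 0.84 (1), complex I 0.80 (10), complex V 0.64 (5) and complex II -0.29 (none). Cox7b differed by 3.19 (SE 0.44, limma adjusted p = 1.71e-08), Cox8a by 3.03 (SE 0.42, limma adjusted p = 1.68e-08) and Ndufv3 by 2.03. Ndufa1 (-0.39, SE 0.64), Atp5f1 (0.06, SE 0.24) and Cox7b2 (0.56, SE 0.81) were not called. Atp5sl, the assembly factor, was the 1 called lower, at -1.34. Each line is 1 clone, so Stra8 genotype and clone cannot be told apart. Feeder and stroma markers summed to 353 to 506 RPM in OESko_A11 DoxRA cells, against 71.0 to 143 RPM in their controls, and to 58.1 and 505 RPM in the OE_A2 DoxRA libraries, against 34.8 to 55.3 RPM in their controls. Of the 12 markers, Lum and Fap were at 0 in both OESko_A11 groups and Lum and Pdgfrb in the OE_A2 DoxRA libraries, and the part of these cells in the result was not tested. Gonadal soma markers summed to 8.71 to 10.5 RPM in OESko_A11 DoxRA cells, against 15.9 to 18.1 RPM in their controls.

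**Figure D4:**
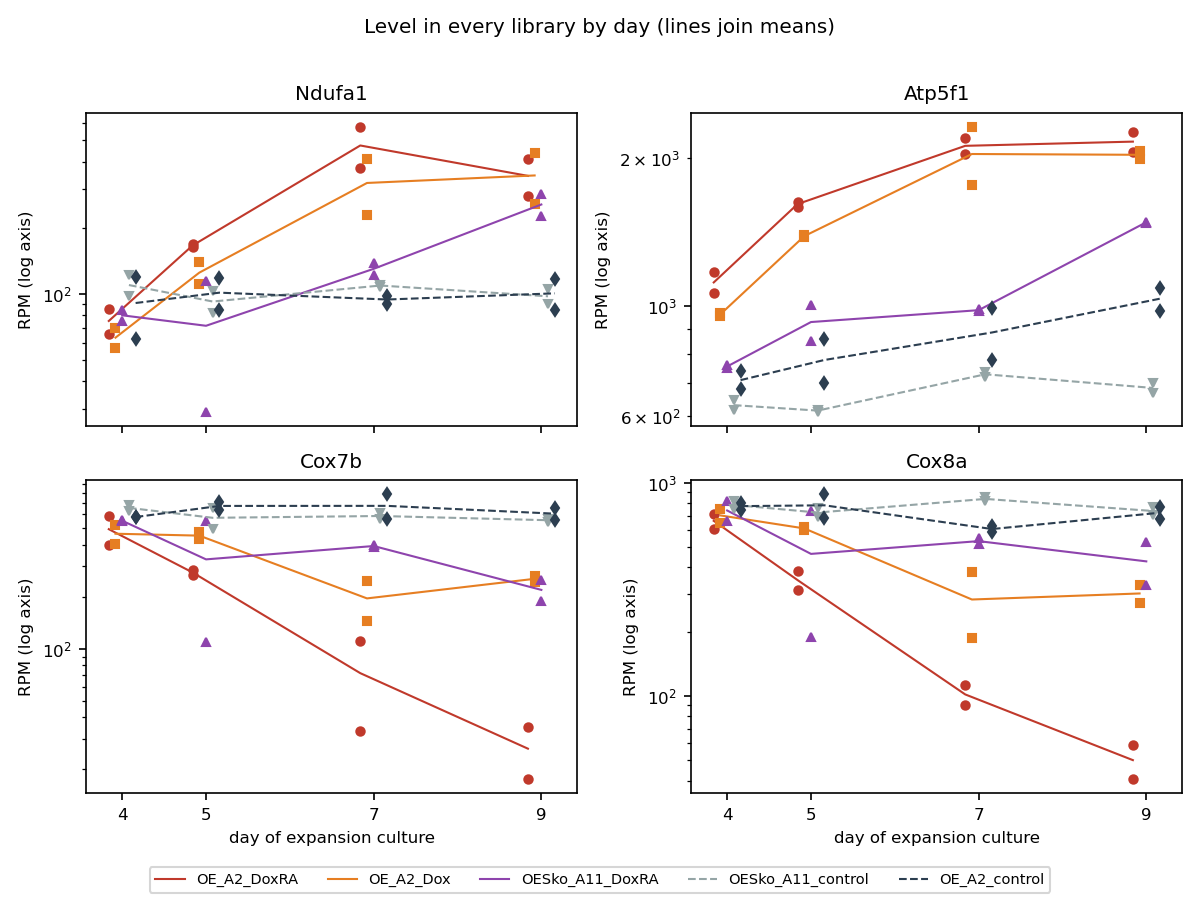
RPM of Ndufa1, Atp5f1, Cox7b and Cox8a (log axes) in each library at days 4, 5, 7 and 9 of expansion culture; points are libraries and lines join group means, red for OE_A2 DoxRA, orange for OE_A2 Dox, purple for OESko_A11 DoxRA and dashed lines for the controls. In OE_A2 DoxRA cells Cox7b has 587 and 396 RPM at day 4 and 17.6 and 35.1 RPM at day 9, and 1 OESko_A11 DoxRA library at day 5 (109 RPM) lies far below the other (548 RPM).

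In DoxRA against control cells of OE_A2, falls outnumbered rises at day 9 and not at the earlier days, while Cox7b and Cox8a were called lower from day 5. There, 6 subunits were called at day 4 (3 higher, 3 lower) beside 22.6% of all genes, 16 at day 5 (11 higher, 5 lower; 36.5% of genes), 30 at day 7 (19 higher, 11 lower; 54.2%) and the 52 above at day 9. Cox7b in DoxRA libraries read 587 and 396 RPM at day 4, 267 and 285 RPM at day 5, 33.3 and 111 RPM at day 7 and 17.6 and 35.1 RPM at day 9, while control libraries stayed between 556 and 781 RPM. Cox8a in DoxRA libraries read 715 and 608 RPM at day 4, 312 and 385 RPM at day 5 and 90.5 and 112 RPM at day 7. Atp5f1 moved the opposite way, with 1064 and 1172 RPM at day 4, 1592 and 1628 RPM at day 5 and 2193 and 2031 RPM at day 7 in DoxRA libraries. Its control libraries held 680 to 1091 RPM over the 4 days.

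Dox alone gave 5 called subunits at day 4 (15.9% of all genes), 5 at day 5 (18.6%) and 22 at day 7 (15 higher, 7 lower; 38.3%). Between DoxRA and Dox cells, limma called 0 subunits at days 4 and 5, with 2 and 4 at an unadjusted p under 0.05, and 2 at day 7, Cox7b at -1.61 and Cox8a at -1.39, beside 3.26% of all genes. For OE_A2 the Dox and DoxRA libraries of days 4, 5 and 7 came, with 1 exception, under a different extraction protocol from their controls, so protocol and treatment cannot be told apart on those days. All day 9 PGCLC libraries shared 1 protocol.

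In OESko_A11 the count ran differently: 45 of 77 subunits were called at day 5 (5 higher, 40 lower, beside 17.9% of all genes called and 6.35% called lower) and 1 at day 7 (Atp5sl, at -0.77; 8.85% of genes). The day 5 count rested on single libraries. Without DoxRA replicate 1 it was 0, without DoxRA replicate 2 it was 64, and without control replicates 1 and 2 in turn it was 15 and 28. Replicate 1 had 11.2% of its reads in ribosomal protein genes, against 25.3% in replicate 2, and held 109 RPM of Cox7b, against 548 RPM in replicate 2. By transcript length, the day 5 medians with all libraries ran from -1.17 for subunits under 600 nt to 0.14 for those above 2000 nt. Other genes of these lengths had -1.09 and 0.26, and the part of length was not tested. At day 4 limma called 0 subunits, with 7 at an unadjusted p under 0.05.

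The doxycycline response was also measured in other media. Without serum and with WIN, 20 of 77 subunits were called between SerumMinusWINDox and SerumMinusWIN cells at day 9, 15 higher and 5 lower, beside 35.4% of all genes. With TMM scaling the split was 12 higher and 9 lower. Ndufa1 rose by 1.60 (203 and 464 RPM in SerumMinusWINDox libraries, against 110 and 91.4 RPM in SerumMinusWIN libraries), and Cox7b changed by -1.28 (354 and 192 RPM, against 667 and 605 RPM). Without SerumMinusWINDox replicate 2 both calls were lost, at 1.01 and -0.84. With BMS, 23 of 78 subunits were called between BMSDox and BMS cells, 21 higher and 2 lower, beside 33.5% of all genes. The medians were 0.47 over the subunits and 0.23 over all genes (-0.05 with TMM scaling, where the split was 9 higher and 4 lower). Ndufa1 read 257 and 262 RPM in BMSDox libraries, against 72.8 and 65.7 RPM in BMS libraries, a rise of 1.89 (SE 0.45, limma adjusted p = 0.000544). Gonadal soma markers summed to 10.4 to 12.4 RPM in BMSDox cells, against 21.1 to 29.6 RPM in BMS cells, and their part in the result was not tested.

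Cox7b and Cox8a were not called in BMSDox against BMS cells, where their changes were -0.32 (SE 0.31) and -0.22 (SE 0.29). The Dox response with BMS minus that in control medium was called by limma in 0 of 79 subunits, with 12 at an unadjusted p under 0.05 and 0 by edgeR, beside 1.67% of all genes, so no difference between the media was called. The same difference for SerumMinusWIN was called in 0 of 78 subunits, with 1 at an unadjusted p under 0.05 and 0 by edgeR, beside 0.01% of all genes. Without doxycycline, BMS against control called Ndufb7 at -0.85 and Atp5f1 at -0.57, beside 3.36% of all genes, and both calls were lost when any 1 of the 4 libraries was left out and with TMM scaling, which moved the median of all genes to 0.03 from -0.13. SerumMinusWIN against control gave 0 calls by limma and by edgeR, with 0 at an unadjusted p under 0.05, beside 0.022% of all genes.

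The response to BMP2 with retinoic acid, given without any transgene, was compared across genotypes. In the Zglp1-/- clones few subunits responded. B2RA against control at day 9 called 6 of 77 subunits, 2 higher and 4 lower, beside 26.1% of all genes. With TMM scaling, which moved the median of all genes to -0.06 from 0.11, 10 were called, 1 higher and 9 lower. Atp5f1 rose by 0.69 and Ndufv2 by 0.52, while Atp5a1 fell by 0.50. Ndufa1 was not called: it read 108 and 35.5 RPM in B2RA cells of Zko_E5 and 106 and 122 RPM in those of Zko_G10, against 101 and 50.7 RPM and 113 and 107 RPM in their controls. Ndufs1 (0.25, SE 0.15), Atp5c1 (0.08, SE 0.12), Cox7b (-0.25, SE 0.22) and Cox8a (-0.40, SE 0.21) were not called either, and their groups overlapped. BMP2 alone called 1 subunit, beside 2.08% of all genes.

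In the Stra8-/- clones, B2RA against control called 31 of 79 subunits, 25 higher and 6 lower, beside 45.7% of all genes. The medians were 0.25 over the subunits and 0.23 over all genes, and with TMM scaling, which moved the median of all genes to -0.07, the split was 9 higher and 11 lower. Atp5f1 read 1257 and 1141 RPM in B2RA cells of Sko_B6 and 1265 and 1213 RPM in those of Sko_F6, against 539 and 464 RPM and 582 and 496 RPM in their controls. All 4 B2RA libraries lay above all 4 controls, and the change was 1.23 (SE 0.12, limma adjusted p = 3.54e-15). Cox7b2 rose by 2.92 and Ndufa1 by 1.16, while Cox7b changed by -0.74 with overlapping groups and Cox8a by -0.57. The call of Cox8a was lost without Sko_B6 B2RA replicate 1 (-0.55) or Sko_B6 control replicate 2 (-0.56). Gonadal soma markers summed to 70.3 to 139 RPM in Sko_B6 B2RA cells, against 27.4 to 29.3 RPM in its controls, and to 9.89 to 29.4 RPM in Sko_F6 B2RA cells, against 6.75 to 8.54 RPM in its controls, with Amh at 0 in all of them. In the Zglp1-/- clones they summed to 38.7 to 104 RPM in Zko_G10 B2RA cells, against 9.13 to 21.3 RPM in its controls, and overlapped between the groups of Zko_E5. Their part in these results was not tested.

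The B2RA response of the Zglp1-/- clones minus that of the Stra8-/- clones was called in 8 of 79 subunits, all 8 lower, beside 11.8% of all genes. Cox7b2 differed by -3.78 (SE 0.58, limma adjusted p = 6.95e-07), Ndufv1, the NADH-binding flavoprotein subunit of complex I, by -1.18, and Atp5f1 by -0.54, a call that leaving out any of 8 single libraries ended. Ndufa1 differed by -1.24 without being called (limma adjusted p = 0.0573). Cox7b2 read 2.37 and 0 RPM in Zko_E5 and 5.13 and 3.37 RPM in Zko_G10 under B2RA, against 16.5 and 26.2 RPM in Sko_B6 and 19.4 and 12.1 RPM in Sko_F6 under the same treatment. The 8 were 3 without Zko_E5 B2RA replicate 2 and 13 without Zko_E5 B2RA replicate 1.

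The parent line H18 had no control-medium libraries at day 9, so B2RA was set against BMP2 there. It called 13 of 77 subunits, 7 higher and 6 lower, beside 25.6% of all genes. Ndufa1 read 1050 and 567 RPM in B2RA libraries, against 507 and 82.0 RPM in BMP2 libraries, a change of 1.91 with both B2RA libraries above both BMP2 libraries. This change rested on BMP2 replicate 2, the library at 82.0 RPM: it was 0.61 and not called without it, 3.22 without BMP2 replicate 1, and 1.47 and not called without B2RA replicate 1. Atp5f1 read 1989 and 2192 RPM in B2RA libraries, against 1444 and 1074 RPM in BMP2 libraries. Cox7b read 210 and 164 RPM in B2RA libraries, against 455 and 454 RPM in BMP2 libraries, a change of -1.29. The call of Atp5f1 was lost as well without BMP2 replicate 2, where its change was 0.53. The count was 2 without BMP2 replicate 2, with none higher, and 18 without BMP2 replicate 1. Gonadal soma markers summed to 37.9 to 200 RPM in H18 B2RA cells, against 8.67 to 12.2 RPM in BMP2 cells, with Nr5a1 and Amh at 0 in both, and feeder and stroma markers to 154 to 527 RPM, against 40.6 to 213 RPM; their part in the result was not tested.

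Set against H18 under the same B2RA treatment at day 9, the Zglp1-/- clones had 32 of 77 subunits called, 10 higher and 22 lower, beside 55.4% of all genes. Complex I, the largest complex, held 13 of the 22 that were lower: 5 of its 7 nuclear-encoded core subunits and 8 of the 29 accessory subunits tested. Ndufa1 differed by -3.18 (SE 0.39, limma adjusted p = 2.61e-11), Ndufs1 by -1.25 and Atp5f1 by -1.24, while Cox8a and Cox7b were each higher by 1.38. The Stra8-/- clones had 28 of 78 subunits called against H18, 20 higher and 8 lower, beside 43.6% of all genes. Ndufa1 differed by -1.75 and Ndufs1 by -1.09, and Ndufv3 was higher by 2.02. Both comparisons share the H18 libraries. H18 had no control-medium libraries at day 9, so a difference between lines and a difference in their B2RA response cannot be told apart. The part of the gonadal soma and feeder and stroma markers given above for H18 B2RA cells was not tested here either.

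**Figure D5:**
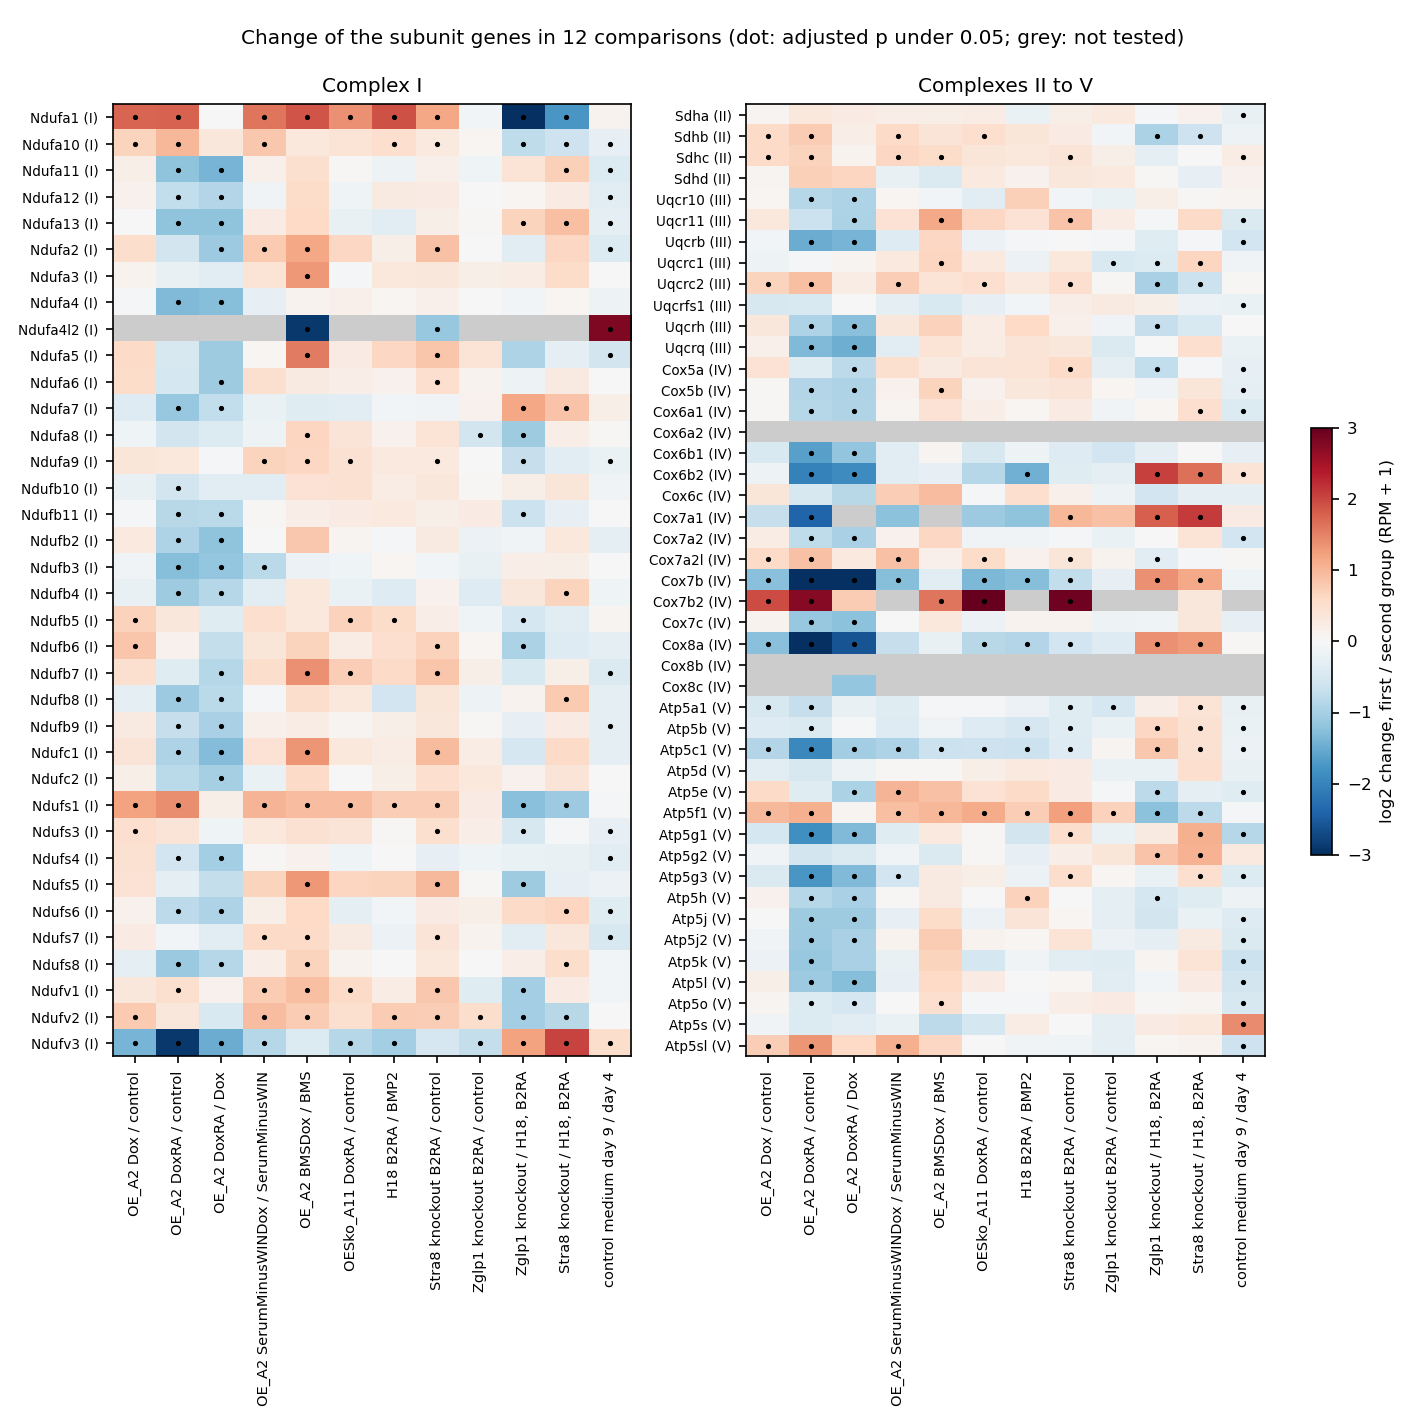
Log2(RPM + 1) changes of 81 subunit genes (rows, grouped by complex) in 12 comparisons (columns); a dot marks a call, grey a gene not tested in that comparison, and colours saturate at changes of 3. The column of DoxRA against Dox in OE_A2 holds 43 dots, all on falls, and that of DoxRA against control in OESko_A11 holds 15, of which 11 are on rises.

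Of the day 9 comparisons, 6 that share no libraries with each other were set side by side. They were Dox, SerumMinusWINDox and BMSDox against their own media in OE_A2 and DoxRA in OESko_A11. The others were B2RA in the Stra8-/- clones and B2RA against BMP2 in H18. This set was put together after the values were seen. Among the 76 subunits tested in all 6, Ndufa1 (changes of 1.16 to 1.91), Ndufs1 (0.73 to 1.21) and Atp5f1 (0.75 to 1.23) were called higher in all 6 with all libraries in the fit, and Atp5c1 (-0.93 to -0.39) was called lower in all 6. These 4 are 5.26% of the subunits, and 6.85% of the 8308 genes tested in all 6 were called in 1 direction throughout. In H18 all 4 calls were lost without BMP2 replicate 2 and in the fit of only its own groups. Without that library the changes there were 0.61 for Ndufa1, 0.59 for Ndufs1, 0.53 for Atp5f1 and -0.37 for Atp5c1 (limma adjusted p of 0.144 to 0.565). Ndufs1 and Atp5f1 kept their call in the other 5 comparisons under every alternative run but a minimum change of 1, while, that minimum aside, Ndufa1 lost it under 1 alternative with Dox, 1 with SerumMinusWINDox and 4 in OESko_A11, and Atp5c1 under 2 in OESko_A11. Ndufv2 was called higher and Cox7b lower in 5 of the 6, and Cox8a and Ndufv3 lower in 4. B2RA against control in the Zglp1-/- clones also shares no libraries with these 6 but was left out of the set. Atp5f1 was the only 1 of the 4 called there.

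Most tissue-restricted isoforms stood apart from their widely expressed counterparts by their levels. Cox6b2 was nearer to its counterpart, with a median of 191 RPM over all PGCLC libraries, against 323 RPM for Cox6b1. Cox7b2 read 24.3 and 27.1 RPM in OE_A2 DoxRA libraries and 14.6 and 14.9 RPM in Dox libraries, against 4.13 and 2.16 RPM in controls, with changes of 2.73 for DoxRA and 1.97 for Dox, the second not called without control replicate 2 (1.62). In OESko_A11 it read 57.6 and 33.4 RPM in DoxRA libraries, against 2.58 and 4.94 RPM in controls, a rise of 3.28 (SE 0.57, limma adjusted p = 3.56e-06). In these comparisons Cox7b2 rose where Cox7b fell, at RPM values well below the level of Cox7b in controls. In BMSDox against BMS cells Cox7b2 rose by 1.62 (SE 0.58, limma adjusted p = 0.0224), while Cox7b was not called. Cox6b2 changed by -2.04 in OE_A2 DoxRA against control cells. Cox8c read 16.2 and 0.797 RPM in OE_A2 DoxRA libraries and 9.89 and 13.0 RPM in Dox libraries, against 3.44 and 2.87 RPM in controls. Cox6a2 reached 9.05 and 13.1 RPM in OESko_A11 DoxRA libraries, against 1.29 and 0.549 RPM in controls. Ndufa4l2, a HIF-responsive paralog of Ndufa4, was at 0 in both OE_A2 DoxRA libraries, against 4.82 and 6.83 RPM in controls, which is at least 9.12-fold lower taking 3 reads over the group as the floor. It was also at 0 in both OESko_A11 DoxRA libraries (at least 5.03-fold lower than controls) and in both SerumMinusWINDox libraries (at least 4.46-fold lower than SerumMinusWIN). In BMSDox libraries it read 0.754 and 1.89 RPM, against 21.0 and 11.7 RPM in BMS libraries, a change of -2.89.

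Culture time in control medium moved the subunits as well. Over 6 lines, day 9 against day 4 called 38 of 78 subunits, 5 higher and 33 lower, beside 50.6% of all genes called and 19.2% called lower, with a median of -0.20 over the subunits and 0.07 over all genes. With TMM scaling, which moved the median of all genes to -0.04, 50 were called, 3 higher and 47 lower. Atp5g1, a gene of the c-ring subunit, had a median of 625 RPM at day 9 (lowest 496, highest 883), against 1117 RPM at day 4 (lowest 883, highest 1509), and fell by 0.85. Complex V, with 17 of the 82 subunit genes, held 12 of the 33 falls, and complex I, with 37, held 13. Gonadal soma markers summed to 6.75 to 77.2 RPM at day 9, against 2.17 to 6.55 RPM at day 4, and were higher at day 9 without overlap in each of the 6 lines, with Amh at 0 throughout. Feeder and stroma markers summed to 34.8 to 498 RPM at day 9, against 37.5 to 240 RPM at day 4, and were higher without overlap in Zko_G10, Sko_B6 and Sko_F6. Their part in the result was not tested. Ndufa4l2 rose by 2.79: its 12 day 9 libraries read 1.72 to 21.9 RPM with a median of 5.88, against 0 to 0.361 RPM with a median of 0 at day 4. Atp5s, a gene for a factor associated with the ATP synthase, rose by 1.43. In OE_A2, day 3 against day 0 called 0 of 77 subunits by limma, with 7 at an unadjusted p under 0.05 and 0 by edgeR, beside 4.39% of all genes. In H18 under B2RA, day 9 against day 4 called 23 of 76 subunits, 14 higher and 9 lower, beside 49% of all genes. Day 4 had 1 library there, which the fit assumed to vary like the other groups, so these calls have no replicate check at day 4. Ndufa1 read 1050 and 567 RPM at day 9, against 107 RPM at day 4, and Cox7b 210 and 164 RPM at day 9, against 946 RPM at day 4. Gonadal soma markers summed to 37.9 to 200 RPM at day 9, against 4.08 RPM at day 4, and feeder and stroma markers to 154 to 527 RPM, against 35.3 RPM. In the knockout clones, B2RA against control at day 7 called 3 subunits in Zglp1-/- cells (9.8% of genes) and 6 in Stra8-/- cells (19.2% of genes).

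In the embryo, with 1 library a stage and no test, several of these genes also differed between stages. Ndufa1 read 85.9 RPM in E9.5 PGCs, 744 RPM in E14.5 oocytes and 875 RPM in E15.5 oocytes. Atp5f1 read 534 RPM at E9.5, 2494 RPM at E14.5 and 2828 RPM at E15.5. Both were several times higher in the oocyte libraries. Cox7b read 549 RPM at E9.5, 66.7 RPM at E14.5 and 36.8 RPM at E15.5, and Cox8a 703, 48.8 and 41.1 RPM at the same stages. Both were low in the oocyte libraries. The embryonic libraries were extracted under another protocol than all day 9 PGCLC libraries, so levels are not compared between them. Atp5a1 read 1134 RPM at E9.5, 420 RPM at E14.5 and 424 RPM at E15.5, and Sdhb 170, 533 and 575 RPM. Over the 78 subunits compared, the median difference from E9.5 was 0.20 at E14.5 and 0.20 at E15.5, beside 0.39 at each stage over 7925 genes. At both stages 16 subunits (20.5%) were at least 2-fold higher and 9 (11.5%) at least 2-fold lower than at E9.5, beside 32.6% and 14.4% of all genes compared.

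Other genes of the pathway were counted in lists chosen by function, and these counts stand beside 62.3% of all genes called in DoxRA against control cells and 25.3% in DoxRA against Dox cells. Of 28 assembly factors in the table, 22 were tested in OE_A2 at day 9: 10 rose and 6 fell in DoxRA against control cells, and 2 rose and 2 fell in DoxRA against Dox cells. These are 72.7% and 18.2% of the assembly factors tested. Atpaf2, an assembly factor of the ATP synthase F1 part, rose by 2.50 in DoxRA against control cells. Among 13 tested genes of cytochrome c and ubiquinone synthesis, 5 rose and 2 fell in DoxRA against control cells (53.8%), and Adck3, a gene for ubiquinone synthesis, rose by 2.12. Of 20 tested genes of mitochondrial genome expression and biogenesis, 5 rose and 2 fell (35.0%), and Polrmt, the mitochondrial RNA polymerase, rose by 2.32. In the TCA cycle and pyruvate entry, 4 of 20 rose and 8 fell (60%), and Pdk1, a kinase that restrains pyruvate dehydrogenase, changed by -3.57. Of 6 HIF-responsive genes of isoform switching and mitophagy, 4 were tested, and 3 fell and none rose, Pdk1 being 1 of them. Among 5 tested oxidative phosphorylation genes that the naming rule leaves out, 4 fell in DoxRA against control and 4 in DoxRA against Dox cells, with Atpif1, the inhibitor of ATP synthase hydrolysis, at -2.86 and -2.07.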

How the data were processed

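The deposited table gives RPM (reads per 1000000 reads) per gene, made by the authors. The submitters' processing notes name cutadapt 1.9.1, TopHat2 2.1.0, Bowtie 1.1.2, SAMtools 1.3, HTSeq 0.9.1 and mm10; the strand setting and annotation of the counting are not given in the sources used here. In 14 deposited columns, the authors' transgene rows lift the total, so those values were handled as a signal per 1000000 reads of endogenous genes, on the same scale. Of 195 columns, 194 matched a labelled sample and were used, 1 was not used, and 2 of 196 labelled samples had no column; 3 displaced lines of the table were realigned. Libraries were prepared from 1 ng of RNA. Values recovered whole reads (100.0% within 0.05 reads in the lowest library), which gives the depths.

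Values were compared as log2(RPM + 1) with limma 3.58.1 (R 4.3.3), fitting 98 group means over 191 libraries with a trended, robust variance, and p-values were Benjamini-Hochberg adjusted over all tested genes. The means of both clones of a genotype were averaged. The scripts were tested on simulated data. Alternatives were pseudocounts of 0.5 and 5, no filter, TMM factors, a fold minimum, only the groups compared, a replicate block, leaving out each library and, chosen after seeing the data, edgeR 4.0.16 on the recovered reads of 58 libraries. Libraries under the 2 extraction protocols numbered 22 and 172. Values per library are given for the 3 largest called rises and falls of a comparison, for tissue-restricted isoforms, for the member nearest a complex's median and for Sdha to Sdhd. Genes that met this in 1 comparison, such as Ndufa1 and Atp5f1, also have such values in others, whether or not they met it there. The members, lists and comparisons were chosen with earlier results of these data known. The Pearson chi-square between the 2 libraries of 93 groups was 1.66 to 63.7 per gene, so both libraries of each pair were counted. Python 3.11.15 and pandas 2.3.3 were used for tables. For 1 gene, results of its own are not reported here. Intervals and floors cover counting error only.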

Additional observations from a re-analysis of the deposited data

Results flagged for a closer look

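The DoxRA response at day 9 differed between OESko_A11 and OE_A2 by a test of the difference itself: 23 subunits were called, with Cox7b at 3.19, Cox8a at 3.03, Cox8c at 2.41 and Atp5sl at -1.34 (OESko_A11 minus OE_A2, log2 scale). Cox8c rested on low values: it read 6.19 and 12.1 RPM in OESko_A11 DoxRA libraries, against 0.861 and 0 RPM in controls, and 16.2 and 0.797 RPM in OE_A2 DoxRA libraries, against 3.44 and 2.87 RPM in controls. Its call was lost with TMM scaling, with a pseudocount of 5, with edgeR and in the fit of only the groups compared.

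The B2RA response at day 9 differed between the Zglp1-/- and the Stra8-/- clones in 8 subunits, with Cox7b2 at -3.78, Ndufv1 at -1.18 and Ndufa8 at -0.98 (Zglp1-/- minus Stra8-/-).

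Ndufa8, an accessory subunit of complex I, read 16.2 RPM in Zko_E5 B2RA replicate 2, while the other 3 B2RA libraries of the Zglp1-/- clones read 95.6 to 104 RPM. It was flagged because a single library stood far from the others. Of 49 sets of libraries examined, 2 showed such a gap, and chance flags about 1 in 20 such sets.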

How the results depend on the processing

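Of 1076 values of the 77 named changes under the alternatives, 990 kept their direction and call, 85 lost the call and 1 reversed: Ndufa8 in the Zglp1-/- clones under B2RA ranged from -1.18 without Zko_E5 B2RA replicate 1 to 0.0605 without replicate 2. Counts of called subunits moved by over 1.5 times as follows, at day 9 unless stated. With TMM factors they were 13 for BMSDox, 0 for BMS, 10 for B2RA in Zglp1-/- and 20 in Stra8-/- clones, and 13 for the difference of the DoxRA responses. With a change of at least 1 they were 6 for Dox, 30 for DoxRA, 24 for DoxRA against Dox, 5 for SerumMinusWINDox, 10 for BMSDox, 0 for BMS, 4 for OESko_A11, 0 for BMP2 and 0 for B2RA in Zglp1-/- clones, 4 for B2RA in Stra8-/- clones, 4 in H18, 13 for Zglp1-/- and 9 for Stra8-/- clones against H18, 2 for control day 9 against day 4, and 2 for the difference of the B2RA responses. With edgeR they were 13 for BMSDox, 0 for BMS, 0 for BMP2 and 10 for B2RA in Zglp1-/- clones, and 3 for the difference of the B2RA responses. With no filter they were 3 for BMP2 in Zglp1-/- clones, 1 for day 3 against day 0 and 1 for the difference of the Dox responses with BMS. In the fit of only the groups compared they were 31 for Dox, 27 for DoxRA against Dox, 10 for SerumMinusWINDox, 0 for BMS, 0 for BMP2 in Zglp1-/- clones and 2 in H18. The cause was not tested.

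Leaving out 1 library at a time gave 13 to 14 for Dox, 37 to 47 for DoxRA, 14 to 34 for DoxRA against Dox, 12 to 23 for SerumMinusWINDox, 10 to 17 for BMSDox, 0 for BMS, 6 to 10 for OESko_A11 (0 to 64 at day 5), 0 to 8 for BMP2 and 4 to 7 for B2RA in Zglp1-/- clones, 23 to 29 for B2RA in Stra8-/- clones, 2 to 18 in H18, 23 to 32 and 20 to 27 for Zglp1-/- and Stra8-/- clones against H18, 34 to 39 for control day 9 against day 4, 12 to 22 for the difference of the DoxRA and 3 to 13 for that of the B2RA responses. A lone library left in a group was assumed to vary like the other groups.

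The labels do not pair same-numbered libraries, and their deviations correlated between -0.27 and 0.43. A replicate block changed no named call, with 20 called for Dox, 53 for DoxRA and 43 for DoxRA against Dox. Depth limited the low isoforms: 1 read was worth 0.192 to 1.14 RPM.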
